A study of Homo sapiens with 8 samples.

Results

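Epithelial-mesenchymal transition (EMT) is the programme by which epithelial cells lose cell-cell junctions and take on a mesenchymal form. The genes described here are 5 of its transcription factors (ZEB1, ZEB2, SNAI1, SNAI2 and TWIST1) and 5 mesenchymal markers (VIM, FN1, CDH2, SPARC and TGFBI). These 10 genes were taken by symbol from the 18404 genes of the array, each read by the brightest probe set whose annotation holds that single symbol, and all 10 had one. Total RNA of 2 established human lung cancer lines, H1299 (NCI-H1299) and H2009 (NCI-H2009), was hybridised to 8 Affymetrix arrays. Each line was infected for 2 days with lentivirus carrying a short hairpin RNA, kept under puromycin for 2 days and harvested at day 4. The groups were PTK7 hairpins in H1299 (PTK7-1 and PTK7-2), control hairpins in H1299 (against GFP and luciferase, LUC), PTK7 hairpins in H2009 and control hairpins in H2009, with the same 4 hairpins in both lines. A group thus holds 2 arrays that carry different hairpins, every array comes from infected and selected cells, and the labels do not state if the arrays come from separate cultures; p-values therefore measure the spread between these arrays, which may be technical. PTK7 is a cell-surface pseudokinase with roles in Wnt signalling and tissue polarity.

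ZEB1 and ZEB2 are zinc finger and homeodomain repressors, SNAI1 (Snail) and SNAI2 (Slug) are zinc finger repressors, and TWIST1 is a basic helix-loop-helix factor. All of them can repress the E-cadherin gene CDH1, and the ZEB and SNAI proteins do so through E-box sequences. ZEB1 and ZEB2 and the microRNAs of the miR-200 family repress each other, and loss of miR-200 is a known step of EMT in carcinoma cells. Vimentin (VIM) is an intermediate filament protein, CDH2 is N-cadherin, FN1 is fibronectin, SPARC is a collagen-binding matrix protein and TGFBI is a matrix protein induced by TGF-beta.

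The mature miR-200 sequences are shown because their seed, bases 2 to 8 in capitals, is what pairs with the ZEB1 and ZEB2 messages. They are RefSeq records on GRCh38.p14, all on the + strand, and fall into a group of 3 and a group of 2 by seed, on chr1 and chr12.
hsa-miR-200b-3p (chr1:1167160-1167181): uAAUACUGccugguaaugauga
hsa-miR-200c-3p (chr12:6963742-6963764): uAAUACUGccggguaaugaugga
hsa-miR-429 (chr1:1169055-1169076): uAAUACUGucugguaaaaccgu
hsa-miR-200a-3p (chr1:1167916-1167937): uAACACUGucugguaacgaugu
hsa-miR-141-3p (chr12:6964155-6964176): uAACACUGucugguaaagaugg

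Start-site windows of CRB3, a polarity gene, and CLDN7, a tight junction gene, are shown as epithelial genes with several copies of the E-box CACCTG (searched on both strands, so as CACCTG or CAGGTG, 2 words that cannot overlap), and a ZEB1 window as the one member with the motif. Each RefSeq window runs from 250 bases before to 50 bases after an annotated start on GRCh38.p14, and capitals mark the motif.
CRB3 (chr19:6464021-6464320, + strand): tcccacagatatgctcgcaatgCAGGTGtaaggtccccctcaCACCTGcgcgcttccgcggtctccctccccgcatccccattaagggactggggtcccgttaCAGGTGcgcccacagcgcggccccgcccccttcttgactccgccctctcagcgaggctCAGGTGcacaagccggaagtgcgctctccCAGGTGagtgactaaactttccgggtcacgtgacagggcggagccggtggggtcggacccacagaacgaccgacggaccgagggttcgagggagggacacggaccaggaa
CLDN7 (chr17:7262429-7262728, - strand): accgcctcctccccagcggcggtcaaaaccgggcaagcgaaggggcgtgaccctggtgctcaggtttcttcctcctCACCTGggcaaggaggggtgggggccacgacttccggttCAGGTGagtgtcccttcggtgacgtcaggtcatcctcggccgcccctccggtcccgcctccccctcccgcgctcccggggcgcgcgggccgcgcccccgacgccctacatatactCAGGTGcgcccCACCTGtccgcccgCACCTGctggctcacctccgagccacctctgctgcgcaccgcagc
ZEB1 (chr10:31318966-31319265, + strand): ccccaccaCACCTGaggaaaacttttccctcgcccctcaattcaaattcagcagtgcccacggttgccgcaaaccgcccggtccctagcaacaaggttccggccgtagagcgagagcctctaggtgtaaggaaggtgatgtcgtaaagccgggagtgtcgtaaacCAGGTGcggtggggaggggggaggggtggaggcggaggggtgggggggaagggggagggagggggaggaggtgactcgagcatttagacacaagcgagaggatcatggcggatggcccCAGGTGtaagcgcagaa

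The motif stood in 20.6% of all 35116 windows. Windows were found for 7 of the 10 members, and of these only ZEB1 held the motif, in 2 of its 7 windows. Windows were found for 8 of the 20 measured epithelial genes listed below, and 6 of these genes held the motif in a window (CDS1, CLDN3, CLDN7, CRB3, DSP and RAB25), against 24.1% of all genes with a window. CLDN7 and CRB3 had 5 copies in 1 window, a number reached in 0.09% of all windows. These matches describe letters in a window and not binding.

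The deposited values are log2 expression values made by the authors with RMA, per the submitters' processing notes, and each value below is a log2 value or a log2 difference on that scale. Small differences of dim genes are compressed there, and the median over the 18404 genes of an array, called the gene median below, lay between 6.27 and 6.33 on the 8 arrays. Values of dim genes were not tested against background, so a fold between the lines is one of array signal and may understate the change where a line is dim. The targeted gene PTK7 read 5.63 with PTK7-1 and 5.53 with PTK7-2 in H1299, against 5.73 with GFP and 6.03 with LUC. In H2009 it read 5.63 with PTK7-1 and 5.94 with PTK7-2, against 6.64 with GFP and 6.86 with LUC. Both PTK7 arrays were thus below both control arrays in each line, by a mean of -0.30 ± 0.17 in H1299 and -0.96 ± 0.17 in H2009 (log2 difference ± SE of the fit), neither past the threshold (limma adjusted p = 0.804 and 0.222). The fall of the PTK7 signal was thus small in H1299, where PTK7 lay below the gene median on every array, control hairpins included. In H2009 it lay below the gene median with both PTK7 hairpins. The fall of the message may therefore be larger than that of the signal, which was not tested. Of 9 lung epithelial markers, 2 lay above the gene median on each H1299 array and 6 on each H2009 array. The surfactant genes SFTPB and SFTPC stood between 3.94 and 4.43 on all arrays, and EPCAM, a general epithelial marker, averaged 3.43 in H1299 and 11.21 in H2009. Markers of fibroblasts were low in both lines, with DCN, LUM, FAP and PDGFRA at no more than 3.65 on any array and at most 1 of 9 above the gene median, and summed linear signals of 198 to 229 in H1299 and 238 to 265 in H2009. All 5 endothelial markers lay below the gene median on every array, and of 7 leukocyte markers only CD68, which many cell types express, lay above it, while PTPRC did not exceed 3.01. The summed signal of the leukocyte markers was 866 to 1520 in H1299 and 298 to 490 in H2009, most of it from CD68. The part of these markers in the results was not tested.

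The members split by line. ZEB1, ZEB2, VIM, CDH2 and TWIST1 were higher in H1299, and SNAI1, SNAI2, FN1, SPARC and TGFBI were higher in H2009, at every array: the 4 H1299 and the 4 H2009 arrays did not overlap for any of the 10 genes. All 10 passed the limma test of the difference between the lines averaged over PTK7 and control hairpins (adjusted p under 0.05 over all 18404 genes), where 36.2% of all genes passed, 19.6% higher and 16.6% lower in H1299. Non-overlap of the lines was seen for 35.2% of all genes, 19% higher and 16.2% lower in H1299. The median size of the difference was 3.06 over the members, beside 0.24 over all genes. The members were chosen with earlier results of these arrays known, so these counts are a description. In RNA of a whole culture, fewer cells with a transcript and less of it per cell cannot be told apart.

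**Figure D1:**
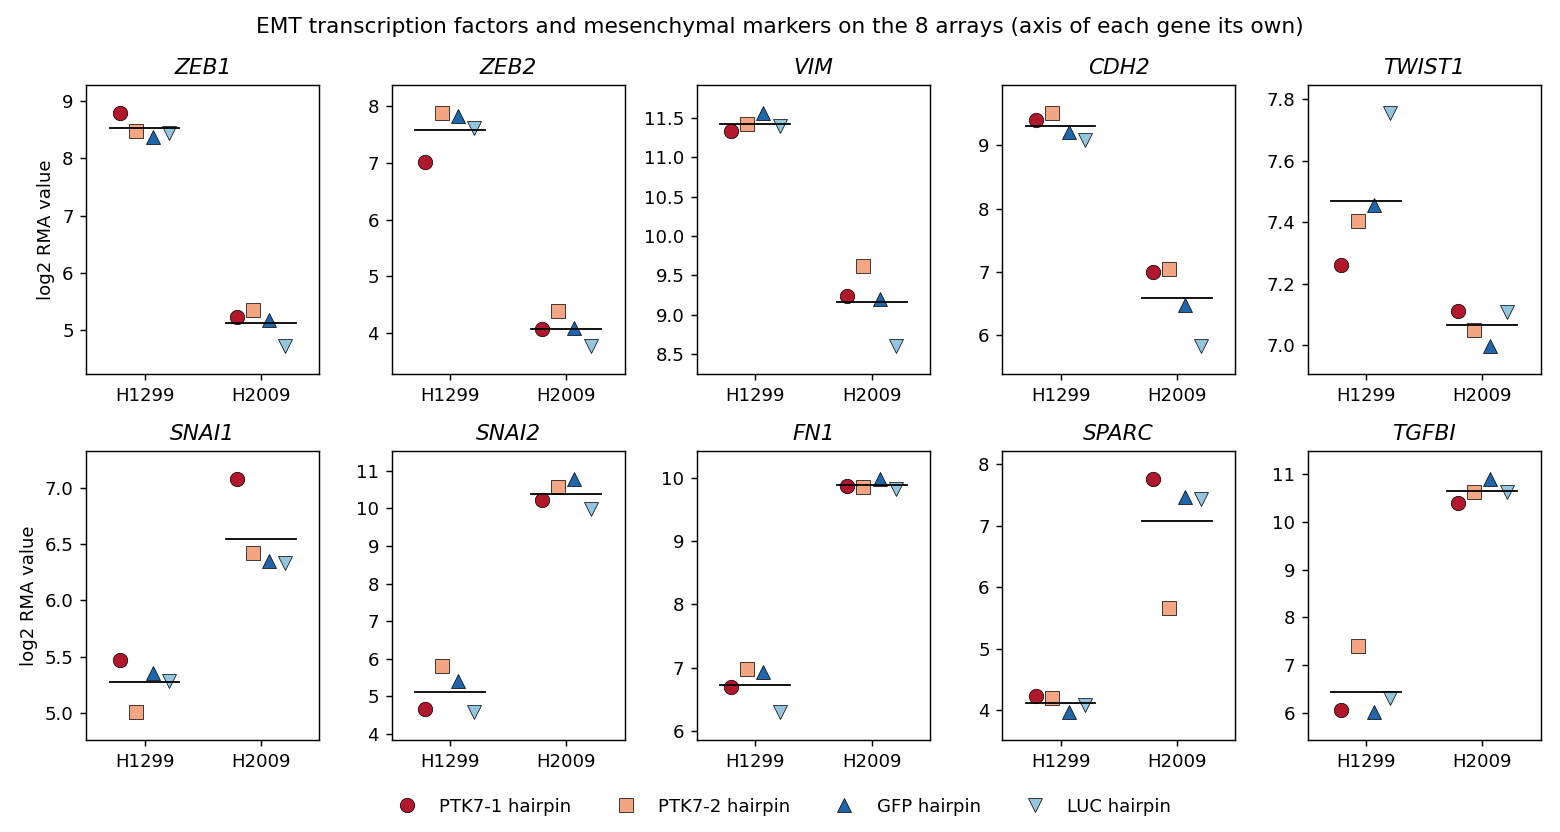
Log2 RMA value (vertical axis, scaled separately for each gene) of the 10 genes on the 8 arrays, with H1299 left of H2009, 1 point per hairpin (PTK7-1, PTK7-2, GFP, LUC) and a line at the mean of the 4 arrays of a cell line. ZEB1, ZEB2, VIM, CDH2 and TWIST1 lie higher in H1299 and the other 5 lie higher in H2009, with no overlap between the lines.

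Of the ZEB repressors, ZEB1 (probe set 7926916) read 8.79 with PTK7-1, 8.47 with PTK7-2, 8.38 with GFP and 8.44 with LUC in H1299, against 5.23, 5.36, 5.18 and 4.72 with the same hairpins in H2009. The H2009 values all lay below the gene median, and the H1299 values all lay above it. The difference was 3.40 ± 0.13, a 10.5-fold higher signal in H1299 (limma adjusted p = 3.33e-06).

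ZEB2 (probe set 8055624) read 7.02 with PTK7-1, 7.88 with PTK7-2, 7.83 with GFP and 7.62 with LUC in H1299, against 4.07, 4.38, 4.09 and 3.77 in H2009. All H2009 arrays were again below the gene median, and the PTK7-1 array was the lowest of H1299. ZEB2 was higher in H1299 by 3.51 ± 0.20, with no exact fold since H2009 was dim (limma adjusted p = 1.96e-05). Its other probe set, 8055639, stood between 2.69 and 3.29 in H1299 and between 2.51 and 2.90 in H2009, so the probe sets of this gene disagree in the size of the difference, and the mean of both gave 1.90.

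The SNAI repressors ran the other way. SNAI2 (probe set 8150698) read 4.65 with PTK7-1, 5.80 with PTK7-2, 5.42 with GFP and 4.58 with LUC in H1299, against 10.22, 10.56, 10.79 and 9.99 in H2009. Every H1299 array was below the gene median, and SNAI2 in H2009 lay above 96.8% of genes. The difference of -5.28 ± 0.32, a 38.8-fold lower signal in H1299, had the greatest size among the 10 members (limma adjusted p = 2.62e-05).

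SNAI1 (probe set 8063382) read 5.47 with PTK7-1, 5.01 with PTK7-2, 5.35 with GFP and 5.29 with LUC in H1299, against 7.08, 6.42, 6.35 and 6.34 in H2009. It was below the gene median on all H1299 arrays and above it on all H2009 arrays. The difference was -1.27 ± 0.17, which is 2.41-fold lower in H1299 (limma adjusted p = 0.00101).

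TWIST1 (probe set 8138442) differed least. It read 7.26 with PTK7-1, 7.40 with PTK7-2, 7.45 with GFP and 7.76 with LUC in H1299, against 7.11, 7.05, 6.997 and 7.11 in H2009, and was above the gene median on all 8 arrays. The difference of 0.40 ± 0.10, 1.32-fold higher in H1299, passed the threshold (limma adjusted p = 0.0176). It no longer passed without the LUC array of H1299 (0.33, adjusted p = 0.0546), the GFP array of H2009 (0.37, 0.0778) or the LUC array of H2009 (0.43, 0.0518). Between PTK7 hairpins alone, a comparison added after seeing the data, it was 0.25 (adjusted p = 0.270).

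Among the markers, VIM (probe set 7926368) was strong in both lines. It read 11.33 with PTK7-1, 11.42 with PTK7-2, 11.57 with GFP and 11.40 with LUC in H1299, above 99.5% of genes, against 9.24, 9.61, 9.21 and 8.60 in H2009, above 87.9% of genes. Vimentin signal was therefore 4.81-fold higher in H1299 and was also well above the median gene in the line with dim ZEB1 and ZEB2 (difference 2.27 ± 0.16, limma adjusted p = 4.92e-05).

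CDH2 (probe set 8022674) read 9.41 with PTK7-1, 9.51 with PTK7-2, 9.22 with GFP and 9.08 with LUC in H1299, against 6.99, 7.04, 6.48 and 5.83 in H2009. The 2 PTK7 arrays were the highest of each line. N-cadherin signal was 6.58-fold higher in H1299, with a difference of 2.72 ± 0.15 (limma adjusted p = 1.50e-05).

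The matrix genes were all brighter in H2009. FN1 (probe set 8058765) read 6.69 with PTK7-1, 6.97 with PTK7-2, 6.92 with GFP and 6.30 with LUC in H1299, against 9.87, 9.86, 9.98 and 9.83 in H2009. Its H2009 arrays spanned only 0.15 and its H1299 arrays 0.68. Fibronectin signal was 8.96-fold lower in H1299, with a difference of -3.16 ± 0.15 (limma adjusted p = 8.72e-06).

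TGFBI (probe set 8108217) read 6.07 with PTK7-1, 7.39 with PTK7-2, 6.02 with GFP and 6.30 with LUC in H1299, against 10.40, 10.63, 10.90 and 10.62 in H2009. A single H1299 array, with PTK7-2, stood 1.09 above the others of that line. TGFBI was 18.3-fold lower in H1299, with a difference of -4.19 ± 0.27 (limma adjusted p = 3.62e-05).

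SPARC (probe set 8115327) read 4.23 with PTK7-1, 4.20 with PTK7-2, 3.97 with GFP and 4.09 with LUC in H1299, against 7.76, 5.66, 7.47 and 7.43 in H2009. All H1299 arrays were dim, and in H2009 the PTK7-2 array was the single one below the gene median, 1.77 under the next lowest. SPARC was lower in H1299, with a difference of -2.96 ± 0.40 and no exact fold since H1299 was dim (limma adjusted p = 0.00113).

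Epithelial genes, unlike the members, ran in 1 direction. Of 20 measured epithelial genes, several of them known to be repressed by ZEB or SNAI factors, 19 were lower in H1299 and passed, 0 were higher and 1, KRT18, did not pass (-0.20 ± 0.22, limma adjusted p = 0.554). The share called lower was 95%, beside 16.6% of all genes. The median difference of the list was -3.35, beside 0.03 over all genes. By the naming rule, the genes with the smallest p-values were EPCAM at -7.78 ± 0.09, CDH1 at -7.26 ± 0.09, MAL2, a transport protein of polarised cells, at -8.29 ± 0.12, and RAB25, a GTPase of epithelial recycling endosomes, at -6.54 ± 0.12. CDH1 averaged 4.02 ± 0.12 in H1299 and 11.28 ± 0.11 in H2009 (SD, n = 4 arrays each). H2009 had high CDH1 and EPCAM together with high SNAI2, FN1 and TGFBI. Genes with the E-box motif in their window differed widely in size: CLDN7 stood at -6.50 ± 0.14 and CRB3, with as many copies, at -0.54 ± 0.12, while CLDN4 with none stood at -3.60 ± 0.26. CRB3 lay below the gene median on every array of both lines, where differences are compressed. These genes were chosen after their values were seen, and a relation of the motif to the difference was not tested.

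**Figure D2:**
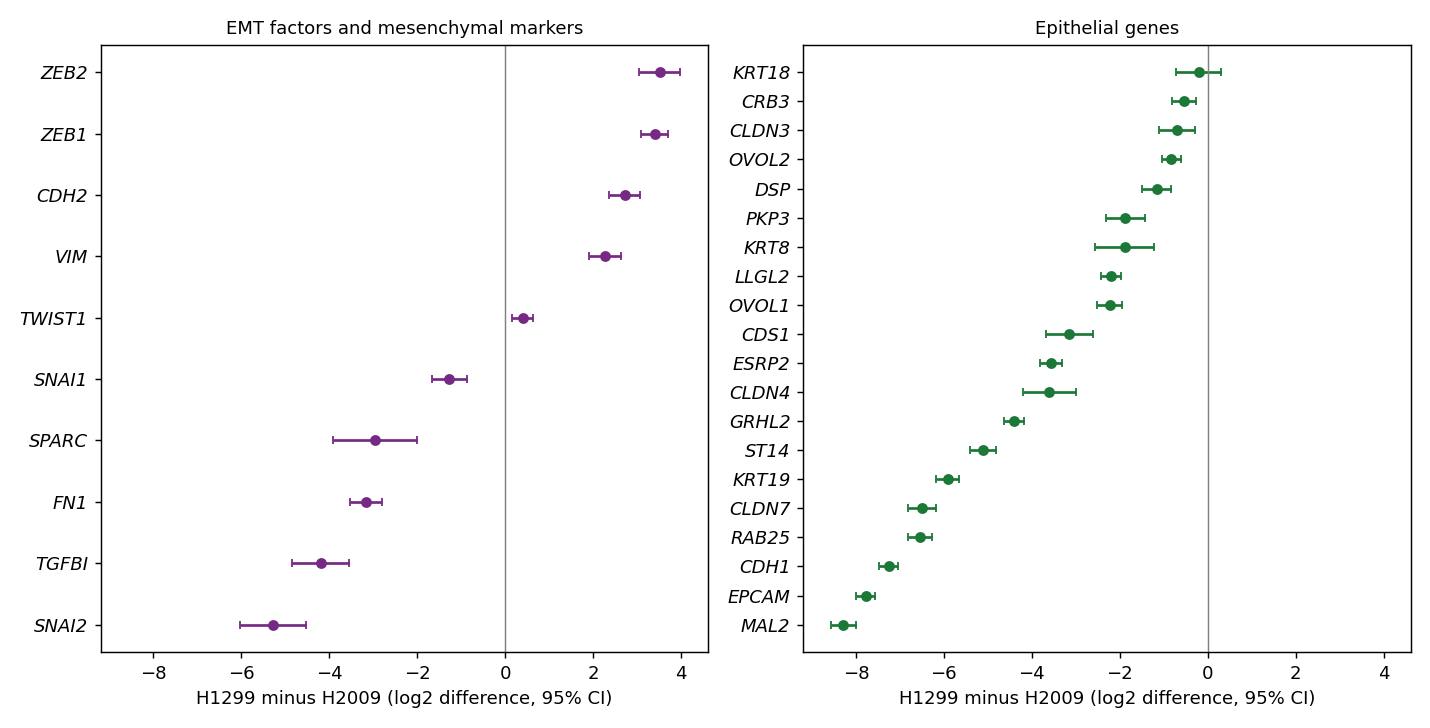
H1299 minus H2009 log2 difference, averaged over PTK7 and control hairpins, with its 95% confidence interval (horizontal axis), for the 10 members (left) and 20 epithelial genes (right), 4 arrays per line. The members lie on both sides of 0, from SNAI2 at -5.28 to ZEB2 at 3.51, and all epithelial genes lie below 0, with the interval of KRT18 alone crossing it.

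Probe sets for the miR-200 precursors were dim, between 3.05 and 5.04 on all arrays, and mature microRNA was not measured. The MIR200C precursor was lower in H1299, at 3.76 ± 0.12 against 4.33 ± 0.10 in H2009 (SD, n = 4 each), a difference of -0.58 ± 0.09 (limma adjusted p = 0.00245). The other 4 did not pass, with MIR200A at -0.10, MIR200B at 0.11, MIR141 at -0.16 and MIR429 at 0.02. The share called was 20%, beside 36.2% of all genes, and 16.6% of all genes were called lower.

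Of 10 other EMT transcription factors measured, 2 were higher and 1 lower in H1299 by the test and 7 did not pass, a share called of 30% beside 36.2% of all genes. TCF4, which encodes a helix-loop-helix partner of TWIST1, was higher at 3.37 ± 0.14, close to the difference of ZEB1, and PRRX1 was higher at 0.79 ± 0.17. KLF8 was lower at -0.65 ± 0.12. Of 24 other mesenchymal genes, 4 were higher, 8 were lower and 12 did not pass, a share called of 50% beside 36.2% of all genes. The fibrillin gene FBN1 was higher in H1299 at 3.08 ± 0.17, and S100A4, the gelatinase gene MMP2 and the tenascin gene TNC were lower at -1.30 ± 0.11, -1.65 ± 0.15 and -4.69 ± 0.46. The collagens COL1A2, COL3A1, COL5A1, COL6A2 and COL6A3, counted after their values were seen, did not pass. Collagens of the same list that stood lower in H1299 were COL1A1, COL5A2 and COL6A1. They averaged 6.20, 3.83 and 7.72 in H1299, against 6.88, 4.45 and 8.89 in H2009.

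The TGF-beta genes, which control FN1, TGFBI and the SNAI and ZEB factors in many epithelial cells, differed in 13 of 17 cases, 8 higher and 5 lower in H1299. The share called was 76.5%, beside 36.2% of all genes, 19.6% higher and 16.6% lower. The ligand TGFB1 was higher in H1299 at 2.73 ± 0.11 and the co-receptor TGFBR3 at 4.04 ± 0.13. The co-receptor ENG was lower at -3.33 ± 0.14, while the transducer SMAD2 was higher at 1.60 ± 0.12. The receptor genes TGFBR1 and TGFBR2 stood at -0.08 ± 0.13 and -0.35 ± 0.23 and did not pass.

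After knockdown of PTK7, no member passed the test in H1299, in H2009, averaged over the lines, or in the difference between the lines. In these comparisons 0.00543%, 0%, 0% and 0% of all genes passed, so the count of 0 of 10 is that of the background. At an unadjusted p under 0.05 limma had 1 member in the averaged comparison, CDH2, beside 1819 of 18404 genes, and 1 in H2009, again CDH2, beside 1468 genes. The interval of each difference is therefore the more useful value. Averaged over the lines, 8 of 10 members stood higher under PTK7 hairpins and 2 lower, with a median of 0.14, beside 55.8% of all genes higher and a median of 0.02. Between the control hairpins, 7 of 10 members stood higher with GFP than with LUC, with a wider median of 0.23. Over all genes, 47.2% stood higher with GFP, with a median of -0.01.

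CDH2 had the widest averaged difference, at 0.59 ± 0.15 (95% interval 0.24 to 0.94, limma adjusted p = 0.265). In H1299 it averaged 9.46 ± 0.08 under PTK7 hairpins and 9.15 ± 0.10 under control hairpins (SD, n = 2 each), and in H2009 7.02 ± 0.03 under PTK7 hairpins and 6.15 ± 0.46 under control hairpins (SD, n = 2 each). Both PTK7 arrays lay above both control arrays in each line. The H2009 difference of 0.86 ± 0.21 (limma adjusted p = 0.348) was 0.54 without the LUC array, the lowest of the line, and 1.19 without the GFP array.

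ZEB1 was the other member whose PTK7 arrays lay above both control arrays in both lines, as 4.93% of all genes did, with 4.53% below both and 9.45% in either direction. Its averaged difference was 0.28 ± 0.13 (95% interval -0.03 to 0.59, limma adjusted p = 0.560). In H1299 it was 0.22 ± 0.19, which became 0.058 without the PTK7-1 array. In H2009 it was 0.34 ± 0.19, which became 0.11 without the LUC array and 0.57 without the GFP array, and without that LUC array the averaged difference was 0.16.

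VIM and SNAI1 lay above both controls in H2009 and overlapped them in H1299. Of the members 4 did not overlap in H2009, all of them higher, beside 44.9% of all genes, 26% higher and 18.9% lower. VIM averaged 9.43 ± 0.27 under PTK7 hairpins and 8.90 ± 0.43 under control hairpins in H2009 (SD, n = 2 each), a difference of 0.52 ± 0.22 (limma adjusted p = 0.628), which was 0.22 without the LUC array and 0.82 without the GFP array. In H1299 it averaged 11.38 ± 0.06 and 11.48 ± 0.11, a difference of -0.11 ± 0.22, and the direct test between the lines did not pass (-0.63 ± 0.31, limma adjusted p = 0.922). SNAI1 in H2009 averaged 6.75 ± 0.46 under PTK7 hairpins and 6.34 ± 0.01 under control hairpins, a difference of 0.41 ± 0.24 (limma adjusted p = 0.712) that rested on the PTK7-1 array and was 0.08 without it.

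SPARC lay above both controls in H1299, at a dim level, by 0.19 ± 0.57, and TWIST1 below both, by -0.27 ± 0.14 (limma adjusted p = 1.00 and 0.776). Without the LUC array of H1299 the TWIST1 difference was -0.12, and without the GFP array -0.42. In H1299, 3 members lay above and 1 below, 4 in all, beside 15.6%, 16.1% and 31.7% of all genes. In H2009 SPARC averaged 6.71 ± 1.48 under PTK7 hairpins and 7.45 ± 0.03 under control hairpins (SD, n = 2 each). The difference of -0.73 ± 0.57 was 0.31 without the PTK7-2 array. TWIST1 in H2009 differed by 0.03 ± 0.14, with an interval of -0.31 to 0.36.

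FN1, SNAI2, TGFBI and ZEB2 overlapped between PTK7 and control arrays in both lines. Of these, FN1 had the smallest spread in H2009, at 9.86 ± 0.01 under PTK7 hairpins and 9.90 ± 0.11 under control hairpins, with a difference of -0.04 ± 0.22 and an interval of -0.55 to 0.46. SNAI2 in H2009 averaged 10.39 ± 0.24 and 10.39 ± 0.56, a difference of 0.01 ± 0.45. TGFBI in H1299 averaged 6.73 ± 0.94 and 6.16 ± 0.20, and its difference of 0.57 ± 0.39 was -0.094 without the PTK7-2 array. ZEB2 averaged 7.45 ± 0.61 under PTK7 hairpins and 7.73 ± 0.14 under control hairpins in H1299, a difference of -0.28 ± 0.28 that was 0.16 without the PTK7-1 array.

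**Figure D3:**
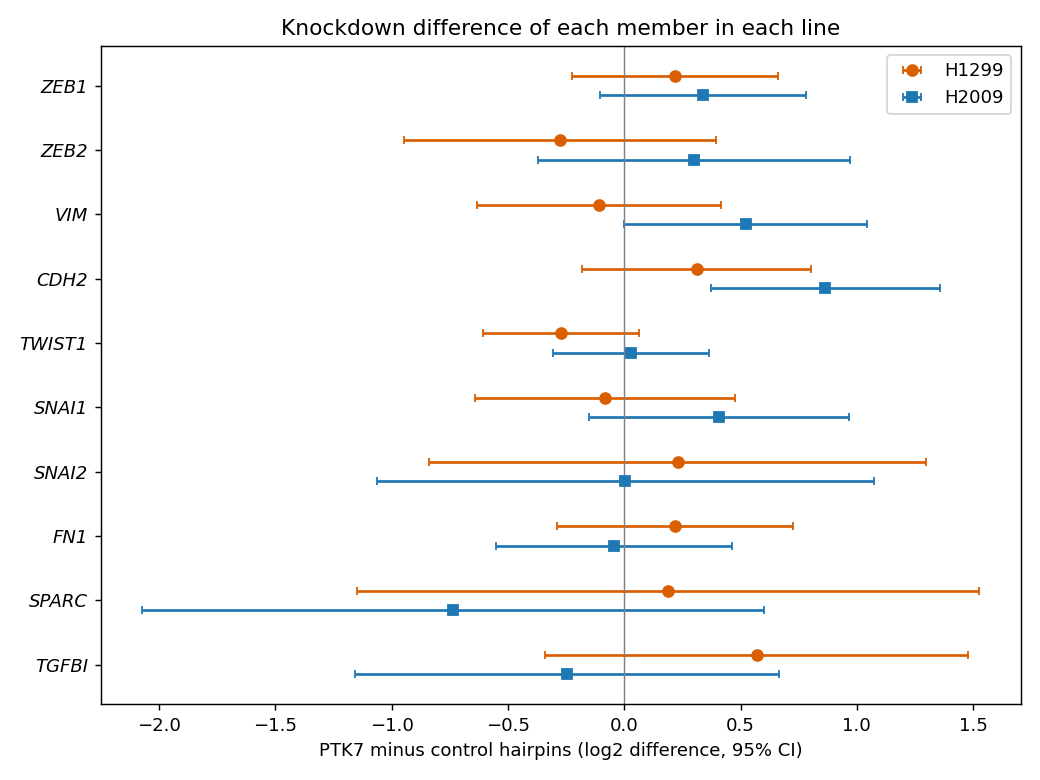
PTK7 minus control hairpins as a log2 difference with its 95% confidence interval (horizontal axis) for each of the 10 genes, in H1299 (circles) and H2009 (squares), 2 arrays per group. CDH2 in H2009, at 0.86, is the single value whose interval leaves out 0, and no value passed after adjustment over all genes.

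In the lists around these genes, 0 members passed for the averaged knockdown difference (0 of all genes did). Of the epithelial genes 11 stood higher and 9 lower under PTK7 hairpins (median 0.01). CDH1 averaged 11.37 ± 0.09 under PTK7 hairpins and 11.19 ± 0.04 under control hairpins in H2009. The smallest unadjusted p in that list was that of CDS1, a phospholipid synthesis gene, at -0.58 ± 0.23 (limma adjusted p = 0.458). Of the other mesenchymal genes 14 stood higher and 10 lower, and the 3 leading ones, THBS1 at 1.04 ± 0.30, LOXL2 at 0.56 ± 0.16 and ITGA5 at 0.50 ± 0.14, were all higher under PTK7 hairpins (adjusted p of 0.321, 0.313 and 0.292). THBS1 averaged 7.60 under PTK7 hairpins and 5.84 under control hairpins in H1299, and 9.45 and 9.12 in H2009. In H2009 its PTK7-2 array (9.30) lay below the GFP array (9.49). GFP was above LUC by 0.91 in H1299 and 0.74 in H2009. THBS1 encodes thrombospondin, LOXL2 a matrix cross-linking enzyme and ITGA5 the alpha subunit of the fibronectin receptor. All 5 miR-200 precursors stood higher, by 0.31 ± 0.11 for MIR141 and by a median of 0.12, at dim levels. Over all genes 55.8% stood higher, and the 5 endothelial markers, also dim, all stood higher, by a median of 0.08.

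TCF4 was the leading gene among the other EMT factors. In H1299 it read 8.66 with PTK7-1 and 8.39 with PTK7-2, against 7.62 with GFP and 7.52 with LUC, a difference of 0.96 ± 0.20 (limma adjusted p = 0.318). In H2009 it read 4.20 and 4.73, against 4.98 and 4.79, a difference of -0.42 ± 0.20 at a dim level. The difference between the lines was 1.38 ± 0.28 and did not pass (limma adjusted p = 0.848). Of the TGF-beta genes, 3 stood higher and 14 lower in H2009, with a median of -0.27, beside 0.03 over all genes, and 0 passed. In H1299 the same list had 9 higher and 8 lower, with a median of 0.02.

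Differences between the individual hairpins were as wide as those of the knockdown for several members. A fit of hairpin and line set PTK7-1 against PTK7-2, and GFP against LUC, over both lines. Between the PTK7 hairpins 3.73% of all genes passed, 1.94% higher and 1.79% lower with PTK7-1, and 0 members did. Between the control hairpins 0% passed. SNAI2 was higher with GFP than with LUC by 0.84 in H1299 and by 0.80 in H2009, an average of 0.82 ± 0.20 (limma adjusted p = 1.00, unadjusted p = 0.00386). It was lower with PTK7-1 than with PTK7-2 by -1.15 in H1299 and -0.34 in H2009, an average of -0.74 ± 0.20 (limma adjusted p = 0.0931). In both lines, then, the GFP and PTK7-2 arrays stood above the LUC and PTK7-1 arrays. The array signal of SNAI2 nonetheless differed 38.8-fold between the lines, and it was dim in H1299. Averaged over the lines, SNAI2 differed by 0.12 ± 0.32 between PTK7 and control hairpins (95% interval -0.64 to 0.87, limma adjusted p = 0.937).

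Without the PTK7-2 array of H2009, when only H1299 carries PTK7-2, SNAI2 and TGFBI passed between PTK7-1 and PTK7-2, at -1.09 and -1.41 (limma adjusted p = 0.0232 and 0.0285), in a fit where 943 genes or 5.12% passed. Without the PTK7-2 array of H1299, SPARC passed at 2.06 (adjusted p = 0.0341), where 97 genes or 0.527% did. With all arrays these were -0.78 ± 0.33 for TGFBI and 1.07 ± 0.46 for SPARC (adjusted p = 0.267 and 0.274). By line, TGFBI differed by -1.33 in H1299 and -0.23 in H2009, and SPARC by 0.04 in H1299 and 2.10 in H2009, so each difference was wider in 1 line. SNAI1 was higher with PTK7-1 than with PTK7-2 in both lines, by 0.46 and 0.65, an average of 0.56 ± 0.18, and ZEB2 was lower in both, by -0.87 and -0.31, an average of -0.59 ± 0.22 (adjusted p = 0.148 and 0.201). CDH2 and ZEB1 differed little between the PTK7 hairpins, at -0.08 ± 0.21 (95% interval -0.56 to 0.41) and 0.10 ± 0.18 (-0.32 to 0.51).

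Each PTK7 hairpin was also set against both control hairpins over the 2 lines; these comparisons share their controls. With PTK7-1, 1.23% of all genes passed, 0.25% higher and 0.978% lower, and 0 members. With PTK7-2, 2.15% passed, 0.391% higher and 1.76% lower, and 0 members. Of the 24 other mesenchymal genes, 1 passed lower with PTK7-1 (4.17%), and 1 higher and 1 lower with PTK7-2 (8.33%). Of the 17 TGF-beta genes, 0 passed with PTK7-1 and 1 passed lower with PTK7-2 (5.88%). CDH2 stood at 0.55 ± 0.18 with PTK7-1 and 0.63 ± 0.18 with PTK7-2 (limma adjusted p = 0.242 and 0.133). SNAI1 stood at 0.44 ± 0.16 with PTK7-1 and -0.12 ± 0.16 with PTK7-2, SNAI2 at -0.25 ± 0.17 and 0.49 ± 0.17, ZEB2 at -0.28 ± 0.19 and 0.31 ± 0.19, and TGFBI at -0.23 ± 0.29 and 0.55 ± 0.29. Averaged over the lines, the hairpins pointed opposite ways for these 4 genes and for SPARC, at 0.26 ± 0.40 with PTK7-1 and -0.81 ± 0.40 with PTK7-2. In H1299 alone both pointed the same way for SPARC (0.20 and 0.17). In H2009 alone both pointed the same way for SNAI1 (0.73 with PTK7-1 and 0.08 with PTK7-2), ZEB2 (0.15 and 0.46) and TGFBI (-0.36 and -0.13). Without the PTK7-1 array of H1299, ZEB2 stood at 0.096 with PTK7-1. The LUC array of H2009 was the lowest of its line for ZEB1, ZEB2, VIM, CDH2, SNAI2 and, by a small margin, SNAI1 and FN1, and its distance below GFP was 0.46, 0.32, 0.60, 0.65 and 0.80 for the first 5.

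**Figure D4:**
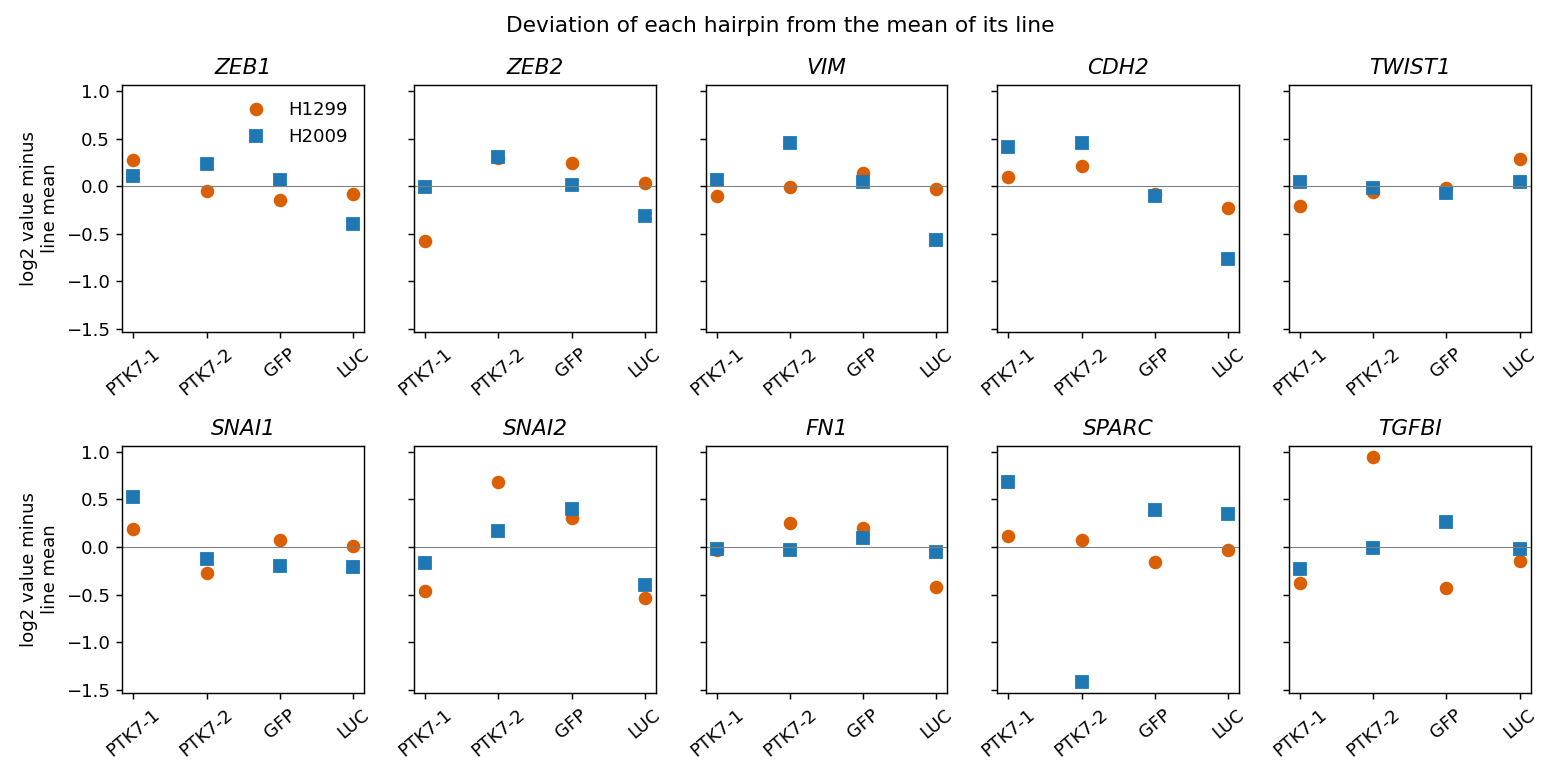
Log2 value of each array minus the mean of the 4 arrays of its line (vertical axis) by hairpin, for H1299 (circles) and H2009 (squares). SNAI2 is above its line mean with PTK7-2 and GFP and below it with PTK7-1 and LUC in both lines, TGFBI departs with PTK7-2 in H1299 and SPARC with PTK7-2 in H2009.

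CDH2, SPARC and TGFBI had the widest knockdown difference within a line, and the genes most like them over the 8 arrays, after the mean of each line was subtracted, were taken from 6961 genes with a spread (SD) of at least 0.2. They were SH2D3A, MYEOV and LIX1L for CDH2 (Pearson r of 0.986, 0.975 and 0.971), SCAPER, KYNU and GIPC2 for SPARC (0.998, 0.982 and 0.977), and ZNF85, LIN9 and FKBP15 for TGFBI (0.984, 0.980 and 0.977). These are the highest of 6961 values over 8 points that share hairpins, and for SPARC and TGFBI a single array carries most of the pattern, PTK7-2 in H2009 and PTK7-2 in H1299. CDH2 departed most with LUC in H2009, at -0.76 from its line mean. On that array SH2D3A, MYEOV and LIX1L stood at -0.78, -0.74 and -0.76.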

How the data were processed

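Expression was measured on 8 arrays. The values used are the authors' deposited log2 values per probe set; RMA and R 2.14.0 are named by the submitters' processing notes, and further steps are not given in the sources used here. Array medians were 5.31 to 5.41 over 32321 probe sets, 0 pairs of arrays were identical, and detection calls were not used here; the number of arrays limits the precision. GEO's platform annotation gave 1 symbol for 19158 probe sets and several for 1388, while 11775 were not listed there and are unnamed here. The brightest probe set was kept per gene (18404 genes, 637 with several probe sets).

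limma 3.58.1 (R 4.3.3) fitted all 8 arrays with 1 coefficient per group or, to compare hairpins, with hairpin and line as terms; p-values were adjusted by Benjamini-Hochberg over the 18404 genes, and 0.05 was the threshold. A value after ± is the fitted standard error, or an SD where so marked. Arrays with the same hairpin deviated together across the lines (r of 0.230 for control and 0.407 for PTK7 hairpins), and the labels give the hairpin as the shared factor, so a model with a replicate block for the hairpin was fitted too. Other alternatives changed the normalization, the filter on dim genes (40% removed), the handling of several probe sets, the prior, the model or the arrays included. Fits were tested on simulated data with independent noise on each array, so that check did not cover the shared deviation of arrays with the same hairpin. Members, lists and tests were chosen with earlier results of these data known. The naming rule took all 10 members, PTK7, up to 4 genes per list by smallest unadjusted p in the line and the averaged knockdown comparison, list members past the threshold where 4 or fewer were, and 3 genes of highest likeness for each of 3 members. KRT18, CLDN4, CLDN7, CRB3, TGFBR1, TGFBR2, the collagens and the genes named for their windows fall outside it and were chosen after their values were seen. Of the lists, 10 of 12 other EMT factors, 24 of 25 other mesenchymal, 17 of 17 TGF-beta, 20 of 21 epithelial and 5 of 5 miR-200 genes had a probe set. Figures used matplotlib 3.10.9 in Python 3.11.15.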

Additional observations from a re-analysis of the deposited data

Results flagged for a closer look

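Within the 4 arrays of a line, 2 of 20 gene and line combinations had 1 array far from the others, judged by its gap to the nearest array divided by the whole range; chance gives about 1 in 20. SNAI1 in H2009 had the PTK7-1 array at 7.08, with the other 3 between 6.34 and 6.42, a gap of 0.882 of the range. SPARC in H2009 had the PTK7-2 array at 5.66, with the other 3 between 7.43 and 7.76, a gap of 0.842 of the range. Whether these hairpins or these single arrays carry the difference was not tested, since each hairpin has 1 array per line.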

How the results depend on the processing

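The difference between the lines kept its direction for all 10 genes in 170 alternative results, and 166 stayed past the threshold; the 4 that did not were all of TWIST1 (values in the report, the PTK7 hairpins alone being chosen after seeing the data). The knockdown counts of 0 of 10 members held under every alternative run. With the hairpin as replicate block, CDH2 reached a limma adjusted p of 0.0754 averaged over the lines, and 149 genes passed in place of 0 (42 higher, 107 lower). The block gave 4 genes in place of 1 in H1299 and 1 in place of 0 between the lines, and changed no call of a member. It takes the differences between the 2 PTK7 hairpins, and between the 2 control hairpins, out of the spread. Its p-values and counts therefore do not cover variation from hairpin to hairpin. Averaged over the lines, 3 genes passed with a trended prior and 2 with an additive fit, and between 0 and 5 with 1 array left out. Left-out arrays gave 0 to 8 genes in H1299, 0 to 3 between the lines, 0 to 347 in place of 226 for PTK7-1, 18 to 545 in place of 395 for PTK7-2 and 0 to 943 in place of 686 between the PTK7 hairpins. PTK7-1 had 348 without dim genes and 373 with a trended prior. Members past the threshold numbered 0 to 2 for PTK7-2 against controls and 0 to 2 for PTK7-1 against PTK7-2 when 1 array was left out, the passing ones being SPARC, or SNAI2 and TGFBI. ZEB2 averaged over the lines was -0.033 after quantile normalization. Knockdown differences of several members changed sign with 1 array left out, the wider ones of SPARC in H2009 and TGFBI in H1299 included; the cause was not tested. Averaged over the lines the ranges were -0.20 to 0.23 for ZEB2, -8e-04 to 0.33 for SNAI1, -0.17 to 0.40 for SNAI2, -0.069 to 0.24 for FN1, -0.80 to 0.25 for SPARC and -0.17 to 0.49 for TGFBI. In H1299 they were -0.71 to 0.16 for ZEB2, -0.31 to 0.15 for SNAI1, -0.34 to 0.80 for SNAI2, -0.094 to 0.53 for FN1 and -0.094 to 1.23 for TGFBI. In H2009 they were -0.39 to 0.40 for SNAI2, -0.028 to 0.083 for TWIST1, -0.12 to 0.034 for FN1 and -1.78 to 0.31 for SPARC. Between the lines they were -0.35 to 0.11 for ZEB1, -0.35 to 0.80 for SNAI2, -0.050 to 0.58 for FN1 and -0.13 to 1.97 for SPARC. For PTK7-2 against controls they were -1.80 to 0.19 for SPARC and -0.088 to 1.19 for TGFBI. A group left with 1 array is assumed to vary like the others. With 2 arrays per group and 1 array per hairpin and line, small changes were not detectable, and RMA compresses dim genes.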
